A study of Mus musculus with 35 samples.

Results

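The subject of this report is a set of 40 mouse genes that encode ribosome biogenesis factors, the proteins that make ribosomal RNA and assemble ribosomes but do not stay in the finished particle. Members were the rows of the deposited count table whose gene name was on the list of members. All 40 names were found, among 41096 genes in the table, and all 40 passed the filter on low counts in each of the 10 comparisons below.

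Bulk RNA-seq was done on thymocytes separated by flow sorting into double negative (DN) cells, without surface CD4 or CD8, and double positive (DP) cells, with both. The 35 libraries form 7 groups of 5. Young DN and young DP cells came from wild type mice aged 10 weeks, and aged DN and aged DP cells from wild type mice aged 60 weeks. WT DN and WT DP cells came from mice aged 10 weeks with the genotype Mettl3flox/wt; Cd4Cre, so these controls carry the Cre transgene and 1 floxed Mettl3 allele, and KO DP cells came from mice of the same age with the genotype Mettl3flox/flox; Cd4Cre. Cd4Cre drives the recombinase from Cd4 regulatory sequence, so deletion takes place in cells that have switched on that gene, and knockout DN cells were not analysed here. Mettl3 is the catalytic subunit of the enzyme that writes N6-methyladenosine on RNA.

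Ribosome assembly starts in the nucleolus, where RNA polymerase I transcribes a long precursor RNA. Small nucleolar ribonucleoproteins (snoRNPs) modify that RNA, the small subunit processome folds and cuts its 5′ part, and separate sets of factors mature the 40S and 60S subunits before export. Many of these genes are known targets of the transcription factor Myc, and in the thymus the pathway is known to be active in DN cells that divide rapidly after they express the pre-T-cell receptor.

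The libraries held 12391908 to 18820157 counts. Levels are CPM, counts relative to the library total, with edgeR's TMM scaling, and unless stated otherwise a group value is the mean ± SD of 5 libraries. The sort markers followed the labels: Cd4 was 6.09 to 107 CPM in the young DN libraries and 1733 to 1911 CPM in the young DP libraries. Library 5 of the young DN group stood apart, with 107 CPM of Cd4 against 16.7 CPM or less in the other young DN libraries. A further 3 DN libraries carried high sums of markers of other cells. B cell markers summed to 18029 CPM and dendritic cell markers to 18018 CPM in aged DN 5, to 6715 and 9219 CPM in WT DN 2, and gamma delta and innate-like T cell markers to 7086 CPM in aged DN 1. The young DN libraries reached at most 978, 777 and 522 CPM for these lists.

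Levels were set per kilobase of the gene length deposited with the counts, as a mean over the 35 libraries. On that scale nucleophosmin (Npm1) was the most abundant member at 244 CPM per kb, followed by fibrillarin (Fbl) at 113 and nucleolin (Ncl) at 103. The RNA polymerase I subunit Polr1e was the least abundant at 6.63 CPM per kb. The order depends on the length used. The deposited length is 10179 bases for Ncl and 3899 for Polr1e, against 8202 and 1724 for an annotated transcript. Together the members took 0.819% ± 0.032 of all counts in young DN cells and 0.272% ± 0.0151 in young DP cells.

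The first question was how these genes change as DN cells become DP cells, a step available in 3 cohorts that share no library. In young mice 39 of the 40 members fell from DN to DP and 1, Wdr12, rose (edgeR quasi-likelihood test, Benjamini-Hochberg adjusted p under 0.05 over 13772 genes). Of all genes tested, 36.5% were called lower and 33.9% higher and 70.4% in either direction. The median log2 fold change of the members was -1.56, with a range from -2.80 to 0.92, against -0.01 over all genes tested. The fall was at least 2-fold for 30 members and at least 4-fold for 6, while 17.7% of all genes tested were called lower by at least 2-fold. No member overlapped between the 5 young DN and the 5 young DP libraries, against 30.7% of genes tested that separated with DP lower and 26.6% with DP higher. In bulk samples, fewer cells of a type and less RNA per cell cannot be told apart, and CPM gives a share of the library, not RNA per cell.

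**Figure D1:**
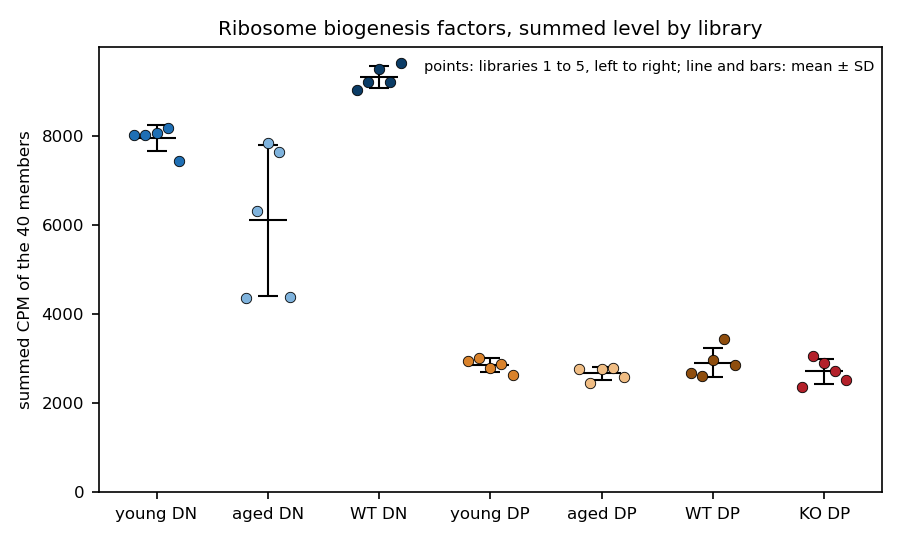
Summed level of the 40 members in each library, in CPM after TMM scaling (vertical axis, from 0), for the 7 groups of 5 libraries; points are libraries and bars give mean ± SD. The 15 DN libraries all sit above the 20 DP libraries, and the aged DN libraries spread most, with an SD of 1692 CPM around 6108 CPM.

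The RNA polymerase I subunits fell by unequal amounts. Polr1b, which with Polr1a forms the catalytic core of the enzyme, had 126, 127, 124, 140 and 137 CPM in the 5 young DN libraries and 18.6, 16.8, 19.2, 21.5 and 18.8 CPM in the 5 young DP libraries. Every DP library lay far below every DN library, and the fall was 2.78 on the log2 scale (SE 0.07, adjusted p = 4.93e-13 by edgeR), to 14.6% of the DN level. Polr1e, a subunit of the heterodimer that assists initiation, had 27.9, 27.7, 29.5, 30.5 and 32.2 CPM in young DN and 21.2, 18, 21.5, 19.4 and 22.7 CPM in young DP. Its groups did not overlap either, but the log2 fold change was only -0.52 (SE 0.09, adjusted p = 9.36e-05 by edgeR). Polr1a, the largest subunit, lay between them at -1.93.

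The 6 core proteins of the snoRNPs all fell. In the box C/D particles, which add methyl groups to ribose, the methyltransferase Fbl had 209, 227, 200, 205 and 174 CPM in young DN and 61.7, 62.5, 54.9, 47.7 and 49.3 CPM in young DP, a log2 fold change of -1.87 (SE 0.09). The scaffold protein Nop56 had 257, 256, 261, 261 and 230 CPM in young DN and 146, 127, 140, 134 and 122 CPM in young DP, a smaller fall at -0.91 (SE 0.06), while its partner Nop58 fell by 1.83. In the box H/ACA particles, which convert uridine to pseudouridine, the core protein Nhp2 had 82, 74.6, 80.9, 81.9 and 72.8 CPM in young DN and 18.2, 19.7, 18.5, 17.9 and 18.5 CPM in young DP, a log2 fold change of -2.07 (SE 0.07). The pseudouridine synthase Dkc1 (dyskerin) had 273, 274, 271, 263 and 255 CPM in young DN and 77, 79.3, 76.4, 76.2 and 63.9 CPM in young DP, a log2 fold change of -1.84 (SE 0.06), and Gar1 fell by 1.88. Within H/ACA the 3 members thus moved by similar amounts, whereas in C/D Nop56 fell less than Fbl and Nop58. Genes on the other strand overlap Nop56 (Idh3b, with counts 63.6% of its own), Dkc1 (Mpp1, 76.9%) and Nhp2 (Rmnd5b, 123.4%). Whether the counting used strand was not stated, and the part of these genes in the amounts was not tested.

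Among the nucleolar scaffold proteins and chaperones, the GTPase Gnl3 (nucleostemin) fell most and Ncl least. Gnl3 had 168, 170, 167, 172 and 154 CPM in young DN and 37.6, 31.3, 37.1, 34.5 and 33.7 CPM in young DP, a log2 fold change of -2.25 (SE 0.07). Ncl, which binds precursor RNA and nucleolar chromatin, had 1666, 1658, 1727, 1676 and 1560 CPM in young DN and 680, 767, 582, 672 and 534 CPM in young DP, a log2 fold change of -1.35 (SE 0.09). Neither gene had overlapping groups, and Npm1, the snoRNP chaperone Nolc1 and the RNA helicase Ddx21 lay between them at -1.86, -1.92 and -1.57.

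All 8 members of the small subunit processome, the large particle that assembles on the nascent precursor RNA, fell, with a median of -1.30. Utp20, a large scaffold protein, had 198, 189, 184, 202 and 202 CPM in young DN and 35.5, 44.7, 55, 56.5 and 47.8 CPM in young DP, a log2 fold change of -2.02 (SE 0.10). Utp14a, which activates the helicase that dismantles the particle in yeast, had 74.1, 66.4, 75.9, 75.4 and 74.8 CPM in young DN and 43.2, 42.5, 36.6, 32.7 and 40.3 CPM in young DP, a log2 fold change of -0.90 (SE 0.08). The other 6 lay between these values: Wdr43 at -1.67, the U3 snoRNP protein Rrp9 at -1.66, Heatr1 at -1.56, Noc4l at -1.04, Nop14 at -1.01 and Utp18 at -0.94.

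The factors of late 40S maturation held both the largest and the smallest fall. Rrp12, which assists export of pre-ribosomes, had the largest fall of the 40 members: 92.9, 94, 104, 105 and 90.1 CPM in young DN against 12.2, 12.1, 17, 15.6 and 12.8 CPM in young DP, a log2 fold change of -2.80 (SE 0.10, adjusted p = 8.61e-12 by edgeR). Bysl (bystin), which binds the head of the maturing small subunit, had the smallest fall. Its levels were 50.4, 53.4, 56.2, 61.3 and 50.4 CPM in young DN and 34.7, 43.5, 40.9, 41.2 and 33.9 CPM in young DP, a log2 fold change of -0.48 (SE 0.09, adjusted p = 0.000163 by edgeR). Bysl overlaps the cyclin gene Ccnd3 on the other strand, whose counts came to 1869.8% of its own, and whether the counting used strand was not stated, so reads of the 2 genes cannot be told apart where they overlap. Tsr1, Ltv1 and the endonuclease Nob1, which makes the mature end of 18S RNA, fell by 1.99, 1.18 and 0.98.

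Of the 13 members that assemble the 60S subunit, 12 fell and 1 rose. Rrp1b had 133, 127, 143, 150 and 130 CPM in young DN and 19.5, 18.3, 23.9, 22.6 and 18.3 CPM in young DP, a log2 fold change of -2.73 (SE 0.09). The smallest fall of the group was that of Wdr74, with 47.4, 50.8, 53.9, 49.7 and 46.7 CPM in young DN and 35.4, 30.2, 33.3, 26.1 and 28.3 CPM in young DP, at -0.69 (SE 0.09). Wdr12 went the other way: it had 109, 103, 102, 96.3 and 103 CPM in young DN and 216, 215, 185, 180 and 175 CPM in young DP, with no overlap and a log2 fold change of 0.92 (SE 0.07, adjusted p = 2.06e-08 by edgeR). Wdr12 is a subunit of the PeBoW complex, in which it works with Pes1 and Bop1, and those partners fell by 1.15 and 1.14. The gene Carf, on the other strand, overlaps Wdr12 with counts that were 16.1% of its own. Mroh1 overlaps Bop1 in the same way, with counts 77.5% of those of Bop1. The remaining falls ran from 1.79 for the RNA methyltransferase Nop2 to 0.77 for Brix1.

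**Figure D2:**
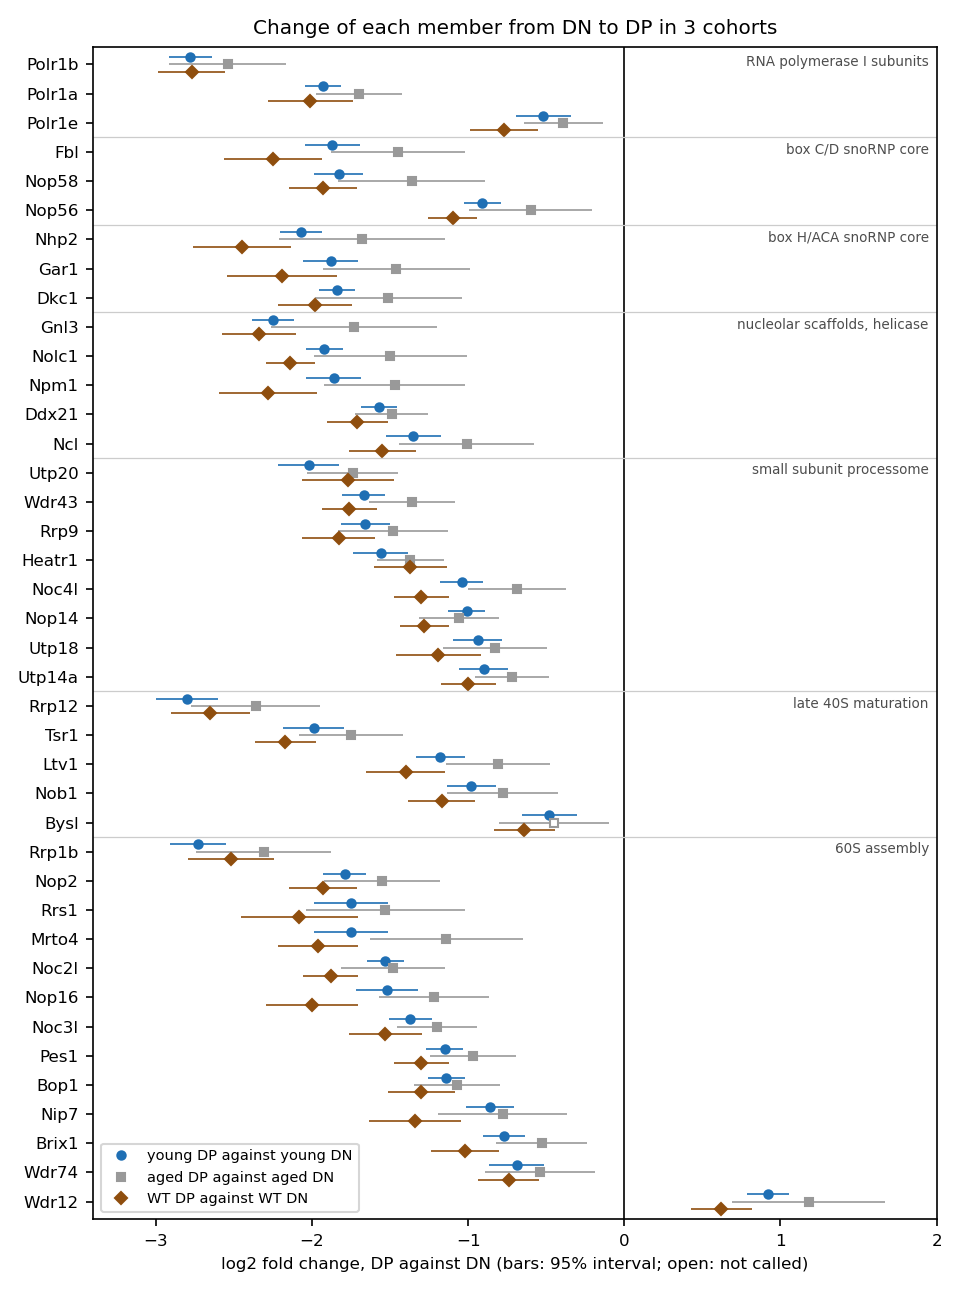
Log2 fold change of DP against DN (horizontal axis) for each member in young (circles), aged (squares) and WT (diamonds) mice, grouped by role and ordered by the young value; bars are 95% intervals and the open symbol was not called. Rrp12, Polr1b and Rrp1b lie farthest left in every cohort and Wdr12 is the only member to the right of 0.

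The direction of the step recurred in the other cohorts. In aged mice 38 members fell, Wdr12 rose and Bysl was not called (log2 fold change -0.45, adjusted p = 0.0654 by edgeR), with 24.6% of genes called lower and 18.6% higher. In WT mice 39 fell and Wdr12 rose, with 33.7% of genes called lower and 30.2% higher. The medians of the members were -1.36 in aged and -1.77 in WT mice, against -0.07 and -0.02 over all genes tested. Rrp12, Polr1b and Rrp1b were the 3 largest falls in each cohort, with log2 fold changes of -2.36, -2.54 and -2.31 in aged and -2.65, -2.77 and -2.52 in WT mice. The fourth was Tsr1 at -1.75 in aged mice (66.3 to 99.1 CPM in DN and 16.8 to 30.2 CPM in DP) and Nhp2 at -2.45 in WT mice (110 to 147 CPM in DN and 16.3 to 29.6 CPM in DP). Bysl and Polr1e were among the 3 smallest falls in all cohorts.

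Wdr12 rose to 183, 196, 155, 152 and 145 CPM in aged DP from 45.3, 90.2, 95.5, 95 and 41.3 CPM in aged DN, a log2 fold change of 1.18 (SE 0.25). Libraries 1 and 5 of the aged DN group were the low ones, and no DN library reached the DP range. In WT mice it had 99.3, 102, 113, 109 and 115 CPM in DN and 136, 176, 173, 152 and 193 CPM in DP, a log2 fold change of 0.62 (SE 0.10) without overlap. Corrections for length, chosen after seeing the data, gave the WT rise as 0.73 (adjusted p = 2.44e-05 by edgeR) with coding length and as 0.25, not called, with transcript length; the annotated transcript used for Wdr12 is 10012 bases long and its coding sequence 1269.

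The calls of the aged step were the least firm. Of its 38 falls, those of Polr1e, Nop56 and Wdr74 were lost under 13, 11 and 7 of 22 alternative settings. Same-numbered aged DN and DP libraries deviated together, and with the replicate number as a block 38 members were called. Point estimates were smaller in aged than in young mice for 38 of the 40 members, and larger in WT than in young mice for 34. Without aged DN 1 and 5 the median difference between the aged and young steps went from 0.25 to 0.07, and 11 members in place of 1 had a negative difference. Those libraries had the lowest summed members of aged DN, so leaving them out had to shrink the median difference. The differences themselves did not pass the test for any member. For the age by stage interaction 0 members were called, against 0.00679% of 14722 genes, and 1 member, Ltv1, had an unadjusted p under 0.05, against 15.1% of genes; DESeq2 also called 0. For the control cohort by stage interaction 0 members were called, against 0.682% of genes, and 9 had an unadjusted p under 0.05, against 14.9%; DESeq2 called 1. The smallest p was that of Noc2l (difference -0.35, SE 0.10, adjusted p = 0.109 by edgeR).

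**Figure D3:**
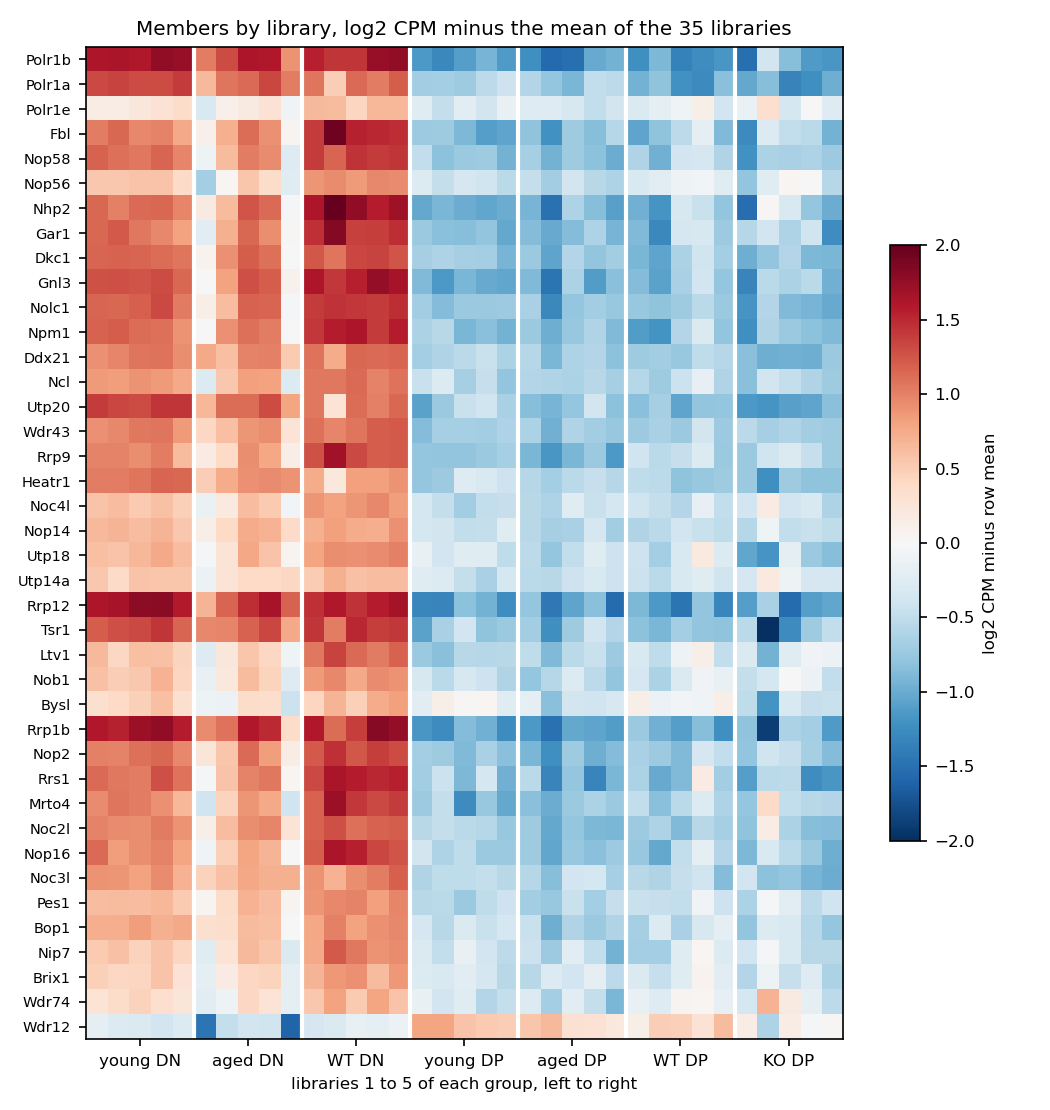
Level of each member in each library, as log2 CPM minus its mean over the 35 libraries (colour, from -2 to 2), with members in rows by role and libraries 1 to 5 of each group in columns. In the young and WT DN libraries 39 rows are above their mean (red) and Wdr12 is below it. In every DP library most rows are below their mean (blue), and Wdr12 is above it except in KO DP 2 and KO DP 4. In libraries 1 and 5 of aged DN 18 and 16 rows are below their mean, and in WT DP 4 and KO DP 2 8 and 7 rows are above it.

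Other genes of the pathway, from lists drawn up with earlier results of these data known, fell less uniformly in young mice. Of 28 other small subunit processome genes tested, 24 fell and 1 rose, with a median of -0.72; the cytidine acetyltransferase Nat10 fell by 2.09 and Rcl1 by 2.07, while the methyltransferase Emg1 rose by 0.52. Of 40 other 60S factors 32 fell and 2 rose, among them Mybbp1a, a nucleolar protein that binds Myb, at -2.45 and the helicases Ddx55 and Ddx54 at 0.36 and 0.16. Of 10 other snoRNP proteins 9 fell, including the H/ACA assembly factors Naf1 and Shq1, both at -2.07. Of 10 exosome genes 9 fell, with the nuclease Dis3 at -1.06 and the cap subunit Exosc2 at -1.21. Other RNA polymerase I genes were split, 6 lower and 4 higher of 12: the subunit Cd3eap fell by 2.14 and the promoter factor Taf1d by 0.67, whereas Taf1b and Taf1c, of the same promoter complex, rose by 0.34 and 0.22. In late 40S maturation 2 of 5 fell (Pno1 by 2.11 and Dimt1 by 1.22) and 2 rose (Riok3 by 0.48 and Tsr3 by 0.25). The rises of Ddx54, Taf1c and Tsr3 were small and were lost with scaling by library totals alone.

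The products that these factors assemble moved the same way: 40 of 43 cytosolic ribosomal protein genes tested fell, with a median of -0.89, from a summed 24943 ± 1773 CPM in young DN to 13260 ± 1869 CPM in young DP. Ribosomal protein genes have many near-identical pseudogene copies, which makes their single values uncertain. Myc fell from 291 ± 12.3 CPM in young DN to 25.4 ± 2.81 CPM in young DP, a log2 fold change of -3.51 (SE 0.08), and its relative Mycn had a log2 fold change of -2.40. S phase genes fell as well, 17 of 18, with a summed level of 5823 ± 345 CPM in DN and 3058 ± 368 CPM in DP, but 10 of 20 genes of G2 and mitosis rose and 0 fell. The part of these genes in the members' fall was not tested.

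Since the members fell together, their promoters were searched for the E-box CACGTG that Myc and its partner Max bind, the CCGGAAG core of Ets factors, and the Nrf1 core, GCGCA and GCGC with any base between them, each on both strands. The windows were 300 bases long, from 250 bases before to 50 bases after the start of the gene, in RefSeq on GRCm38.p6, and 35 members had one. An E-box lay in 7 of the 35 (20%), against 8.1% of 27025 genes and 11.7% of the 9194 genes with a window that were tested in the young step. The Ets core lay in 14 (40%), against 9.9% and 20.5%, and the Nrf1 core in 4 (11.4%), against 5.2% and 11.8%. The 7 E-boxes are shown with their flanks, with the E-box in capitals, because Myc is a regulator widely tied to these genes; each is read along the gene's own strand.
Nop2, chr6:125131812-125131839, plus strand: tgtccctggatCACGTGtgttccggtgc
Ltv1, chr10:13193093-13193120, minus strand: ccctgtggaccCACGTGtggagctgccg
Utp20, chr10:88826765-88826788, minus strand: ggcactaactaCACGTGaggaaaa
Pes1, chr11:3963966-3963993, plus strand: cctaggcagggCACGTGcgggaggaagt
Tsr1, chr11:74898093-74898120, plus strand: cacttggtgcaCACGTGgactgcagaat
Utp18, chr11:93885770-93885797, minus strand: cgagcgccggtCACGTGgcttgcggcgg
Wdr43, chr17:71616221-71616248, plus strand: gcccgggcgaaCACGTGgctgccgcgga
The motif began 60 bases before the start in Nop2 and 38 bases after it in Utp20, the ends of the range. These 7 genes fell by 0.94 (Utp18) to 2.02 (Utp20) in young mice, within the range of the members whose window held none. A match is a description of the sequence, and binding was not measured.

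The next comparisons asked what age does within a stage. In DN cells 0 of the 40 members were called by edgeR, against 0.267% of 13873 genes. The point estimates were all negative, from -0.12 to -0.55 with a median of -0.32, and 15 members had an unadjusted p under 0.05, against 22.0% of all genes; DESeq2 also called 0. The members with the smallest p were Utp20, with 119, 162, 162, 184 and 129 CPM in aged DN against 184 to 202 CPM in young DN (log2 fold change -0.34, SE 0.11, adjusted p = 0.153 by edgeR), and Nop16, a 60S factor, with 25.2, 36.8, 45.7, 42.6 and 26.5 CPM against 45.8 to 58.1 CPM (-0.50, SE 0.17, adjusted p = 0.157 by edgeR). These are among 5 members whose aged DN libraries all lay below the young ones, against 3.77% of genes tested.

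The spread within the aged DN group was wide and uneven. All 40 members lay below the young DN range in library 1, 39 in library 2 and 38 in library 5, but only 8 in library 3 and 9 in library 4, and 7 lay above it in library 3. Libraries 1 and 5 also had the lowest S phase sums, 2090 and 1637 CPM against 4745 to 5722 CPM in the other aged and 5332 to 6099 CPM in the young DN libraries, and carried the marker sums of other cells given above. The part of these cells in the lower values was not tested. Without libraries 1 and 5 the median was -0.14 and 0 members were called. These had the lowest summed members of the group (4353 and 4383 CPM). Leaving them out had to bring the median nearer to that of young DN, so no conclusion is drawn from it. A fit over all 35 libraries, which lends the narrow spread of other groups to this one, called 9 members lower. That fit called 2160 genes in all, against 37 in the main fit.

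In DP cells no difference with age passed the test. The summed level was 2856 ± 153 CPM in young DP and 2671 ± 152 CPM in aged DP, and 0 members were called, against 0.942% of 13059 genes. Log2 fold changes ran from -0.33 to 0.10 with a median of -0.05, and 4 members had an unadjusted p under 0.05, against 11.8% of genes; DESeq2 also called 0. The smallest p belonged to Noc2l, a 60S factor, with 96.5, 77.7, 92.3, 84.5 and 83.7 CPM in aged DP against 107, 113, 109, 106 and 93.1 CPM in young DP (-0.26, SE 0.08, 95% interval from -0.41 to -0.11, adjusted p = 0.137 by edgeR). Bysl followed at -0.33 (SE 0.12, adjusted p = 0.25 by edgeR), and both genes had overlapping groups.

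The knockout comparison asked what the loss of Mettl3 does in DP cells. Counted over the whole gene, Mettl3 itself averaged 51.7 ± 5.13 CPM in the knockout and 50.8 ± 3.85 CPM in the control libraries, a count that does not test a deletion of some exons. Of the members 0 were called, against 1.59% of 13233 genes; 4 had an unadjusted p under 0.05, against 14.5% of genes, and DESeq2 called 1. The summed level was 2715 ± 280 CPM in KO and 2911 ± 325 CPM in WT, and the median log2 fold change was -0.02. Bysl had 28.2, 17.6, 32.5, 29.2 and 29.7 CPM in KO against 43.7, 37.2, 39, 38.2 and 43.8 CPM in WT, so that every KO library lay below every WT library (-0.54, SE 0.15, adjusted p = 0.119 by edgeR), and 2.49% of genes tested separated in that direction. DESeq2, the fit over all 35 libraries and the fit without KO DP 2 each called Bysl lower. The replicate block (adjusted p = 0.214 by edgeR) and the transcript and coding length corrections (adjusted p = 0.0789 and 0.0832 by edgeR) did not. The overlap of Bysl with Ccnd3 applies here too. Wdr12 had 138, 81.1, 138, 123 and 127 CPM in KO and 136, 176, 173, 152 and 193 CPM in WT, which overlap at the 138 and 136 CPM libraries (-0.43, SE 0.15, adjusted p = 0.2 by edgeR). The widest 95% interval was that of Tsr1, from -1.01 to 0.63, with 2.31 CPM in KO DP 2 and 16.4 to 28 CPM in the other KO libraries. KO DP 2, also the lowest for Bysl and Wdr12, had counts for 12306 genes, the fewest of the 35 libraries. The other KO libraries had counts for 16042 to 19656 genes. KO DP libraries also held less of the DP marker list, 11977 ± 1682 CPM against 15286 ± 1091 CPM, and more dendritic cell markers, 410 ± 144 CPM against 48.8 ± 17.5 CPM; their part in these values was not tested.

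**Figure D4:**
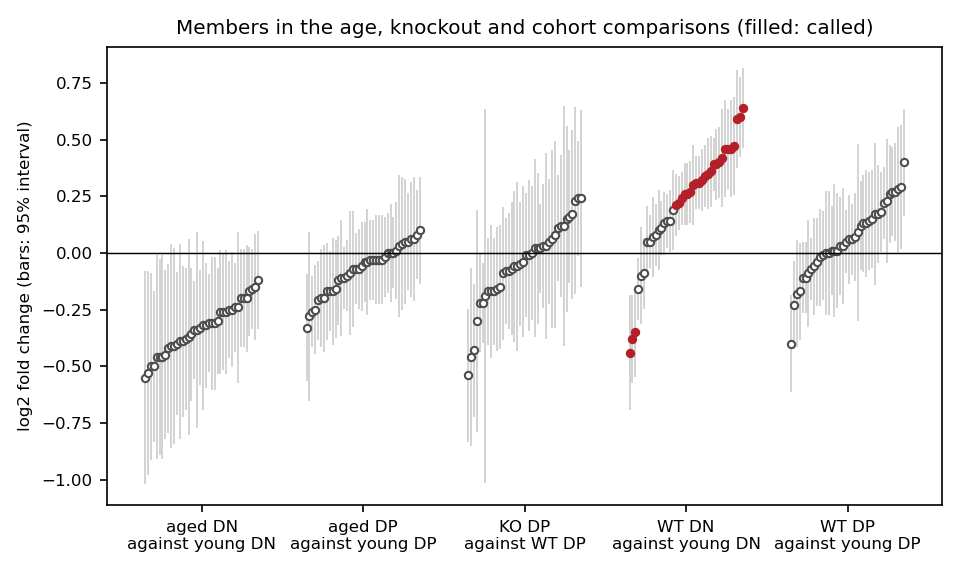
Log2 fold changes of the 40 members (points, sorted within each comparison; bars are 95% intervals) for age, knockout and control cohort comparisons; filled points were called. The only called members, 24 higher and 3 lower, are in WT DN against young DN, while all points of aged DN against young DN lie below 0.

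The last comparison set the control cohorts of the same age side by side, young against WT, which differ in genotype and were not described as processed together. In DP cells 0 members were called, against 0.589% of 13083 genes (DESeq2 called 1, Polr1a), and 7 had an unadjusted p under 0.05, against 15.7%. The median log2 fold change was 0.05. The smallest p values belonged to Polr1a (-0.40, SE 0.11, adjusted p = 0.116 by edgeR) and Ltv1 (0.40, SE 0.12, adjusted p = 0.143 by edgeR). In DN cells 24 members were higher in WT and 3 lower, against 14.2% of 13702 genes called higher and 10.9% lower, and the summed level was 9314 ± 247 CPM against 7947 ± 293 CPM in young DN. The median log2 fold change was 0.26, against 0.00 over all genes. Without WT DN 2, 30 members were called, and without young DN 5, 19. The share of all genes called without these libraries is not given, so no conclusion about the members is drawn from the change. The fit over all 35 libraries called 9, 8 higher and 1 lower, with Heatr1 the lower one and Utp20 (adjusted p = 0.0527) and Polr1a (adjusted p = 0.0964) no longer called by edgeR. That fit called 1752 genes in all, against 3439 in the main fit.

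Before any correction for length, the largest differences upward were those of 2 snoRNP proteins, a 40S factor and a 60S factor. Nhp2 had 113, 147, 126, 110 and 120 CPM in WT DN against 72.8 to 82 CPM in young DN (0.64, SE 0.09). Ltv1 had 72.2, 88.9, 76.2, 71.2 and 78.6 CPM against 46.2 to 54.8 CPM (0.60, SE 0.09), and Fbl had 269, 393, 297, 293 and 284 CPM against 174 to 227 CPM (0.59, SE 0.11). Mrto4, which holds the place of a stalk protein on the immature 60S subunit, was higher by 0.47 (SE 0.11), and none of the 4 overlapped between groups.

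The 3 that were lower are the 3 with the longest coding sequence among the members. Utp20 had 155, 90, 162, 151 and 166 CPM in WT DN against 184 to 202 CPM in young DN (-0.44, SE 0.13, adjusted p = 0.0293 by edgeR). Heatr1 had 187, 130, 198, 199 and 210 CPM against 227 to 251 CPM (-0.38, SE 0.10, adjusted p = 0.0212 by edgeR), and Polr1a had 161, 108, 167, 155 and 176 CPM against 188 to 201 CPM (-0.35, SE 0.10, adjusted p = 0.0296 by edgeR). Library 2 of WT DN, which carries the B cell and dendritic cell markers, was the lowest for all 3.

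The order by length held for the members and for all genes. All 7 members with under 1000 coding bases were higher, as were 13 of 16 from 1000 to 2000 bases and 4 of 14 from 2000 to 4000 bases, and all 3 over 4000 bases were lower. The medians over all coding genes in these classes were 0.27, 0.04, -0.16 and -0.44. As a description across genes, which are not independent, Spearman's rho between log2 fold change and coding length was -0.84 over the 40 members and -0.53 over 11257 coding genes; in the young DN to DP step it was -0.26 and 0.05. The cohorts differed by length in DP cells as well: rho was -0.58 and -0.32 for WT DP against young DP, and 0.68 and 0.36 for the control cohort by stage interaction; the count of 34 members given above compares the same steps. When a trend of level on coding length was removed from each library, 21 members were called higher and 0 lower. Of all 11257 genes with a coding length, 1203 were then called in either direction. Utp20, Heatr1 and Polr1a turned to 0.15, 0.11 and 0.06, Ltv1 stayed at 0.57, Fbl and Nhp2 went to 0.44 and 0.31, and Mrto4, at 0.25, was no longer called (adjusted p = 0.0795 by edgeR). With transcript length in place of coding length 13 members were called higher and 0 lower, and 1101 of 12244 genes in either direction. Nhp2 was then 0.30, Fbl 0.27 and Mrto4 0.16 (not called), and the largest were Nop58 at 0.78, Ncl at 0.68 and Wdr12 at 0.62. For these 3 the annotated transcript used is 9507, 8202 and 10012 bases long, against 1608, 2121 and 1269 coding bases. Ribosomal protein genes were higher in WT DN for 31 of 43, against 14.2% of all genes tested called higher. Their summed level was 49358 CPM in WT DN 2 and 32206 to 36038 CPM in the other WT DN libraries. The part of length or of other cells in their rise was not tested.

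**Figure D5:**
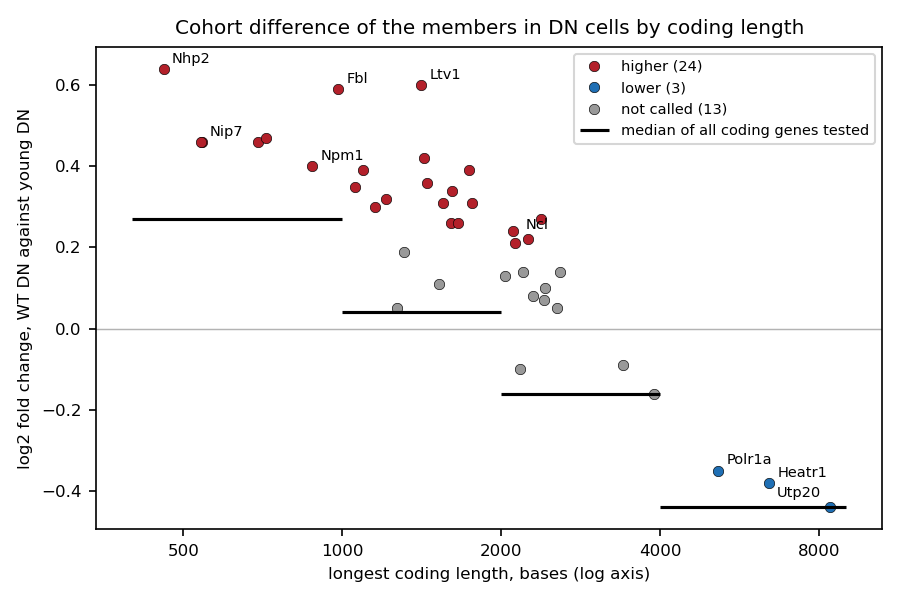
Log2 fold change of WT DN against young DN (vertical axis) by longest coding length in bases (horizontal log axis) for the 40 members, coloured by call; black lines give the median of all coding genes tested in each length class. Members fall from 0.64 for Nhp2 to -0.44 for Utp20 as length grows, and the black lines fall from 0.27 to -0.44.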

How the data were processed

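The deposited table holds raw whole-number read counts per gene, not normalized, made by the authors; the submitters' processing notes name HTSeq 2.0.3, Subread, STAR 2.5.1, DESeq2, Trim Galore 0.4 and bcl2fastq, with the builds GRCm39 and mm10, without roles, and gene identifiers are those of the C57BL/6NJ strain annotation. Which program counted, and whether it used strand, is not given in the sources used here. The labels do not say whether replicates are separate animals, so p-values reflect only how these libraries vary, which may be technical. The members and all other lists were chosen with earlier results of these data known.

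Each comparison was fitted with edgeR 4.0.16 in R 4.3.3 on the libraries of its groups alone (4 groups for an interaction), with TMM scaling, edgeR's low-count filter (minimum total 15, minimum count 10), the quasi-likelihood test, and 2-sided Benjamini-Hochberg adjusted p over all genes tested, called under 0.05; 95% intervals take the normal quantile of the SE. Levels are CPM after TMM over the 35 libraries. Per-library values are given for the members with the largest and smallest change of each role group in the young step and any member against the majority; elsewhere for the 4 largest called changes in each direction, or the 2 smallest p where none was called. Outside the members, the 2 genes with the smallest adjusted p per direction were named from each pathway list. Coding and transcript lengths came from GENCODE M21, and promoters from RefSeq (GRCm38.p6). Fits were tested on simulated counts. No 2 libraries of a group agreed within sampling noise.

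The replicate number paired the libraries in 1 comparison, aged DP against aged DN, where the deviations of same-numbered libraries correlated at 0.14 to 0.29, all above 0.1. Alternatives were other scalings, no filter, DESeq2 1.42.0, 1 fit over all 35 libraries, the replicate block and each library left out. In comparisons with aged groups, libraries 1 and 5 of aged DN, and those of aged DP, were also left out together. Corrections for transcript length and for coding length (the latter not for interactions) were chosen after seeing the data. Each removed from every library a smooth trend of level on length. Taken over many genes together, libraries of a group differed by more than counting error. For single members at low levels, such as Nhp2 in young DP, counting error can be as large as the spread between libraries.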

Additional observations from a re-analysis of the deposited data

Results flagged for a closer look

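Among 112 sets of 5 libraries (15 members given by library, and the members' sum, in 7 groups), 11 had 1 library far from the other 4, with a gap of over 0.71 of the range; chance gives about 1 in 20, or 5.6 sets. Library 5 of young DN was low for Nop56 (230 CPM, the others 256 to 261), Gnl3 (154 CPM, the others 167 to 172) and the members summed (7438 CPM, the others 8016 to 8189). This is the young DN library with the most Cd4 and Cd8a, and the part of these cells in the low values was not tested. Utp14a was low in young DN 2 (66.4 CPM, the others 74.1 to 75.9), and Dkc1 in young DP 5 (63.9 CPM, the others 76.2 to 79.3).

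In WT DN, library 2 was high for Fbl (393 CPM, the others 269 to 297) and low for Utp20 (90 CPM, the others 151 to 166), and library 3 was low for Polr1e (33.7 CPM, the others 38.9 to 39.7). Utp20 was high in aged DP 4 (58 CPM, the others 39.3 to 43.9). In KO DP, library 2 was low for Bysl (17.6 CPM, the others 28.2 to 32.5) and Wdr12 (81.1 CPM, the others 123 to 138).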

How the results depend on the processing

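The counts of members called in the young and WT DN to DP steps were the same under every alternative, except for 39 in WT with the transcript length correction, and the aged count ran from 33 to 40. Leaving out 1 library gave 0 to 1 called in KO DP against WT DP (1 without KO DP 2), 0 to 2 in the control cohort by stage interaction (2 without WT DP 4) and 19 to 30 in WT DN against young DN. DESeq2 called 1 member in KO DP against WT DP, 1 in WT DP against young DP and 1 in the cohort interaction. The fit over all 35 libraries called 9 in aged DN against young DN, 1 in KO DP against WT DP and 9 in WT DN against young DN, where the transcript length correction called 13 and turned Utp20 to 0.01 and Polr1a to 0.14, and the coding length correction called 21 and turned Utp20 to 0.15, Heatr1 to 0.11 and Polr1a to 0.06. With the replicate block 38 were called in the aged step and 37 with the transcript length correction as well; in comparisons whose numbers do not pair, the block gave 21 in WT DN against young DN and changed no other count of members. Own-number matches there were 3 of 5 or fewer. Where no total over all genes is given for a setting, a changed count of members is not read as a result about them.

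Counts over all genes moved more. In aged DN against young DN, 37 genes were called, 819 with DESeq2, 2160 in the fit over all 35 libraries, 1 with the block, 21 and 20 with the transcript and coding length corrections and 738 without aged DN 1 and 5. The 211 genes of the knockout comparison became 536 with DESeq2, 61 with the block and 534 without KO DP 2. Of the other comparisons, aged DP against young DP had 123 genes (353 unfiltered, 317 with DESeq2, 30 in the fit over all 35), WT DN against young DN 3439 (1752 in that fit, 1101 and 1203 with the transcript and coding length corrections), and WT DP against young DP 77 (149, 447 and 4, 8 with the block and 138 with the coding length correction). The age interaction had 1 gene (85 with DESeq2, 21 in the fit over all 35, 10 with the block), and the cohort interaction 100 (331, 25 and 15, and 22 with the transcript length correction). Scaling by library totals changed the split of WT DP against young DP from 30 higher and 47 lower to 46 and 24, and that of the cohort interaction from 81 and 19 to 121 and 7. The causes were not tested.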

Other observations

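Genes listed around p53, which stabilises when ribosome assembly is disturbed, did not share 1 direction in the young DN to DP step. Of 7 tested, 6 fell and 1 rose, against 36.5% of all genes tested called lower and 33.9% higher. Besides the genes named below, the list held Rpl5, Rpl11, Gnl3l, Nop53 and Rrp8. Rpl5 and Rpl11 are also on the list of ribosomal protein genes. The ubiquitin ligase Mdm2 rose by 0.79 (SE 0.06) on the log2 scale, while the cell cycle inhibitor Cdkn1a fell by 4.06 (SE 0.20) and Trp53 itself by 0.83 (SE 0.05). In the Myc network 5 of 10 genes rose and 2 fell, the falls being those of Myc and Mycn.

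Myc, like the members, was low in the same aged DN libraries: 98.2, 245, 300, 268 and 120 CPM in libraries 1 to 5, against 275 to 309 CPM in young DN. In DP cells it was 35.2 ± 8.31 CPM in KO and 25.5 ± 5.68 CPM in WT (SD, n = 5), with overlapping groups.

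The 40 members lie on 17 chromosomes, at most 5 on the same one. For 10 of them, an overlapping gene had counts of at least 10% of the member's own, the largest after Bysl being Rmnd5b at 123.4% of Nhp2, and 23 members had no overlapping gene with counts. Those not named above were Rrp9 (Parp3, 79.8%), Polr1e (Fbxo10, 26.6%), Gnl3 (Glt8d1, 22.1%) and Tsr1 (Srr, 21.6%), each overlapped from the other strand. The part of these genes in the members' values was not tested.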
